A study of Homo sapiens with 12 samples.

Results

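The genes described here are 10 regulators of stem and progenitor cells: the Krüppel-like factors KLF4, KLF5 and KLF6, the SRY-related HMG box factors SOX2, SOX4, SOX9 and SOX11, the bHLH factor MYC, the POU homeobox factor POU5F1 (also known as OCT4) and the RNA-binding protein LIN28B. They were chosen by name, as genes that miR-145 is known to target in other cells and relatives of those genes, and were found on the arrays as 35 of the 209671 probes whose transcript could be named. A filter on dim probes kept 7 of the 10 genes, out of 18253 genes kept among 20708 with a named probe.

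The cells were MDA-MB-231, an established triple-negative human breast cancer line with mesenchymal features. Each of the 4 groups had 3 biological replicates, measured on 12 one-colour arrays. The cntrl cells received control oligonucleotides for both the mimic and the siRNA, so transfection was common to all arrays. The mimic145 cells were made to overexpress miR-145 with Pre-miR-145-5p at 5 nM, the sirnaAGO2 cells were silenced for AGO2 with a Dicer-substrate siRNA at 500 pM for 72 h, and the sirnaAGO2+mimic145 cells had both. All values therefore come from a single line under transient transfection, and they are RNA levels and not protein levels. In bulk RNA, fewer cells of a kind and less RNA per cell cannot be told apart.

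POU5F1, SOX2, KLF4 and MYC are the classical set of factors that turn differentiated cells into induced pluripotent cells. In embryonic stem cells miR-145 is known for lowering POU5F1, SOX2 and KLF4 and so for favouring differentiation, and in tumour cells of several tissues MYC, KLF5, SOX9 and SOX11 have been named among its targets. LIN28B blocks the maturation of let-7 microRNAs, which in turn lower MYC, HMGA and IGF2BP mRNAs, so within the set it stands upstream of MYC.

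The mimic carries mature miR-145-5p, and its sequence is shown because the seed decides which transcripts a microRNA can pair with. It has 23 bases and is read from RefSeq (GRCh38.p14, chr5:149430661-149430683, plus strand), with the seed, bases 2 to 8, in capitals.
miR-145-5p: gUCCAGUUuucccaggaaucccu
The complement of the seed is AACUGGA, and 1 of the 2370 mature human microRNAs in the RefSeq table, miR-145-5p itself, holds this seed. Other catalogues of microRNAs were not searched for this seed, and sites for it in the transcripts of the 10 genes were not analysed here.

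The 7 kept genes were KLF4, KLF5, KLF6, SOX4, SOX9, MYC and POU5F1. SOX2, SOX11 and LIN28B had no probe reading well above background on any array. The silencing was visible in the targeted gene, as AGO2 fell by 0.71 on the log2 scale in sirnaAGO2 against cntrl (SE 0.076, adjusted p = 0.00492, lower in 3 of 3 pairs). AGO2 was also higher in mimic145 than in cntrl, by 0.28 (adjusted p = 0.0298). The share of well above background spots ran from 60.5 to 77.3% over the arrays, and no spot was saturated. In replicates 1, 2 and 3 it was 71.6, 67.6 and 73.4% in cntrl and 66.7, 61.6 and 77.3% in mimic145. It was 71.0, 69.1 and 74.1% in sirnaAGO2 and 67.9, 60.5 and 70.8% in sirnaAGO2+mimic145. The share was thus lower with the mimic in each pair but replicate 3 of the cells not silenced. Its part in the differences below was not tested. The 8 genes chosen as typical of MDA-MB-231, such as VIM, CD44 and AXL, all had kept probes. Of 8 luminal, basal and receptor genes that the line is known to lack or to express weakly, 6 nonetheless had kept probes (GATA3 6 of 6, ERBB2 25 of 30, CDH1 7 of 16, ESR1 6 of 14, KRT14 5 of 9 and KRT5 2 of 8), and PGR and FOXA1 had none. Of 8 markers of immune, endothelial and stromal cells, each had at least 1 kept probe (PTPRC 4 of 33, PECAM1 1 of 2, DCN 2 of 9), and their summed signal ran from 93160 to 145000 in cntrl, 115200 to 131500 in mimic145, 110500 to 139400 in sirnaAGO2 and 111700 to 140400 in sirnaAGO2+mimic145. Among them DCN was higher in both comparisons of the mimic (0.31 and 0.34) and PECAM1 was lower after silencing (-0.68). Both genes were dim, with 18.5% of DCN and 20.8% of PECAM1 probe readings well above background. A probe was kept if it was above background throughout 1 group, so these changes can hold readings near the floor. The part of these markers in the results below was not tested.

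**Figure D1:**
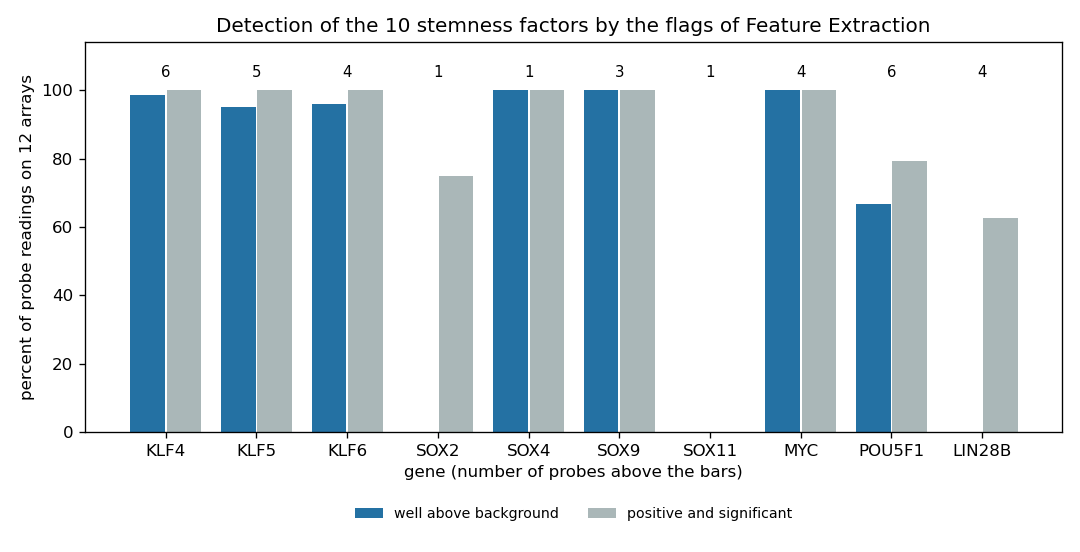
Share of all readings of a gene's probes on the 12 arrays (vertical axis, percent) that carried the flag for well above background (blue) or the weaker flag for a positive and significant signal (grey), with the number of probes above each pair of bars. SOX2, SOX11 and LIN28B have no blue bar, and SOX11 has neither.

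Signals are given as log2 of the quantile-normalized intensity, averaged over the kept probes of a gene. They compare arrays for 1 gene and do not rank the genes. Differences were tested in limma, which also fitted the replicate number, and "called" means a Benjamini-Hochberg adjusted p under 0.05 over 18253 genes. In cells not silenced for AGO2, 1 of the 7 kept genes was called higher with the mimic (KLF4) and 1 lower (KLF5), where 11.6% of all genes tested were higher and 11% lower, 22.6% together. In AGO2-silenced cells 1 gene was called higher (SOX4) and 1 lower (KLF5), where 4.25% of all genes were higher and 3.03% lower, 7.28% together. Silencing alone left 1 gene lower (SOX4), where 1.69% of all genes were lower and 2.58% changed in either direction. How far the effect of the mimic differed between the 2 settings was called for 0 of 7 genes by limma, and for 0.011% of all genes. An unadjusted p under 0.05 was found in 4 of 7 genes in the first comparison (35.4% of all genes), in 4 in the second (28.8%), in 2 after silencing (19%) and in 1, SOX4, between the settings (16.8%). The median log2 difference of the 7 genes was 0.06 for mimic145 against cntrl, 0.22 for sirnaAGO2+mimic145 against sirnaAGO2 and -0.06 for sirnaAGO2 against cntrl, and over all genes it was 0.01, 0.02 and -0.03. The comparisons share arrays: the cntrl arrays serve both mimic145 and sirnaAGO2, and the sirnaAGO2 arrays enter the silencing comparison and the second mimic comparison with opposite signs.

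**Figure D2:**
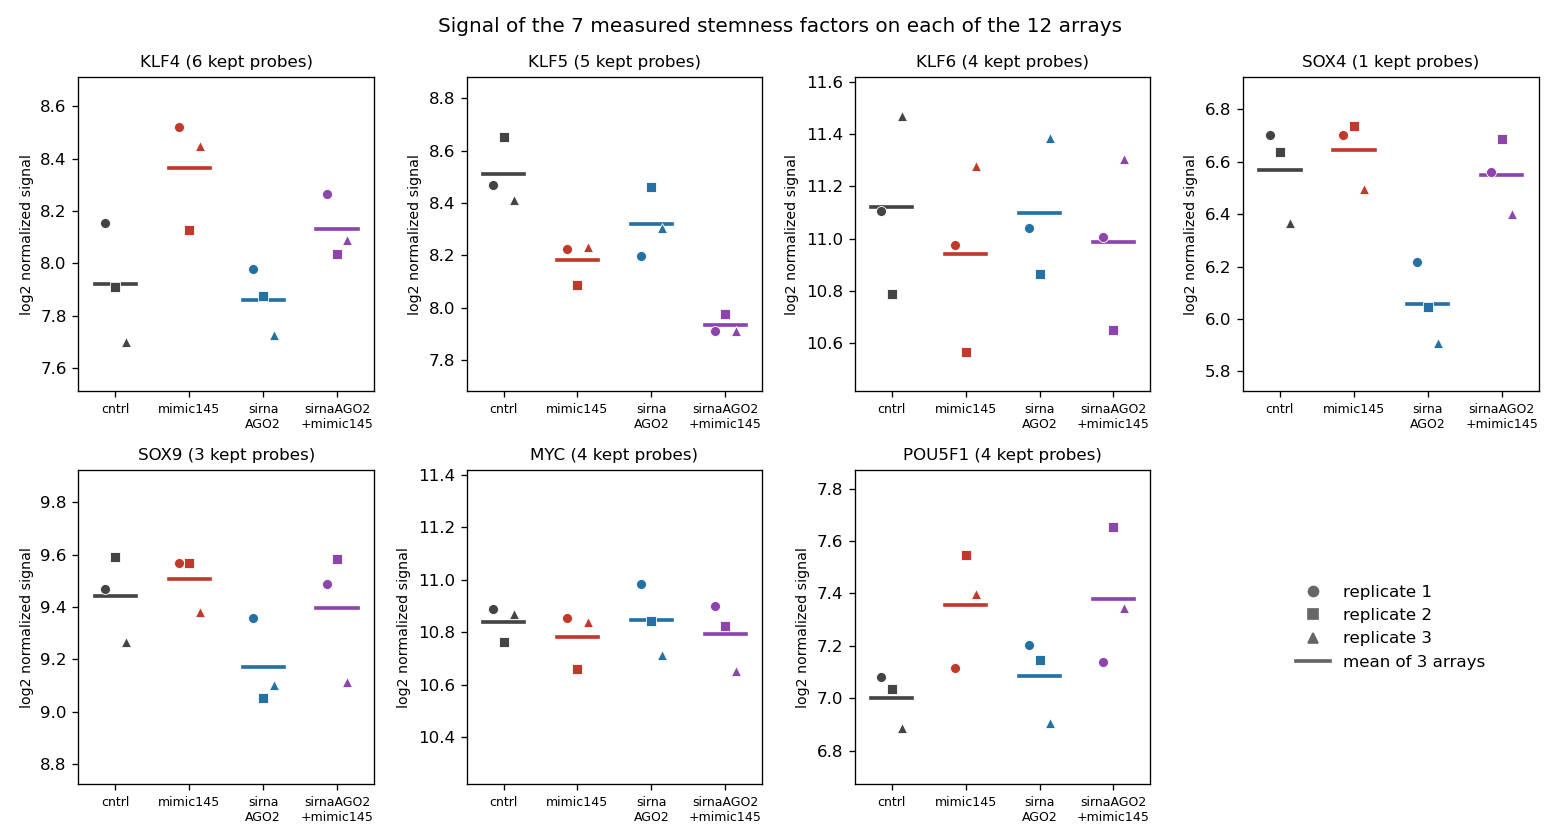
Log2 normalized signal (vertical axis) of the 7 kept genes on each array, by group, with symbols for the replicate number and bars for the mean of 3 arrays. The KLF4 arrays of mimic145 and the KLF5 arrays of cntrl sit high, and the SOX4 arrays of sirnaAGO2 sit below those of all other groups.

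The Krüppel-like factors are zinc finger proteins that bind GC-rich boxes. KLF4, a reprogramming factor that also drives epithelial differentiation, was higher with the mimic. Its signal was 8.16, 7.91 and 7.70 in the cntrl replicates 1, 2 and 3 (7.92 ± 0.23, SD, n = 3) and 8.52, 8.13 and 8.45 in mimic145 (8.36 ± 0.21). The groups overlapped by 1 array on each side, since replicate 1 of cntrl lay above replicate 2 of mimic145, but within each replicate number the mimic array was the higher one. The log2 difference was 0.44 (SE 0.10, 95% interval 0.21 to 0.67, adjusted p = 0.0138), which is a level of 135.9% of cntrl. All 6 KLF4 probes were higher, by 0.24 to 0.54. The call was lost without cntrl replicate 3 (0.35, adjusted p = 0.0555), without all arrays of replicate 3 (0.29, adjusted p = 0.115) or of replicate 1 (0.48, adjusted p = 0.105), with only the arrays compared (adjusted p = 0.0875) and in the fit with no replicate block (adjusted p = 0.0683). The adjusted p ran from 0.00804 to 0.115 over the limma alternatives.

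In AGO2-silenced cells the KLF4 signal was 7.98, 7.88 and 7.73 in sirnaAGO2 (7.86 ± 0.13) and 8.26, 8.04 and 8.09 in sirnaAGO2+mimic145 (8.13 ± 0.12). The groups did not overlap, which was so in either direction for 24.1% of all genes, and the mimic array was higher in 3 of 3 pairs. The difference of 0.27 (95% interval 0.04 to 0.50) had an adjusted p of 0.124 and was not called. The effects of the mimic in the 2 settings differed by -0.17 (95% interval -0.50 to 0.15, adjusted p = 0.551). From high to low the group means ran mimic145, sirnaAGO2+mimic145, cntrl and sirnaAGO2, and the arrays of neighbouring groups in this order overlapped.

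KLF5, which promotes proliferation of basal epithelial cells, was the gene of the set called lower with the mimic. KLF5 was called in both settings, but in silenced cells only with 1 dim probe included. Its signal was 8.47, 8.65 and 8.41 in cntrl (8.51 ± 0.12) and 8.22, 8.09 and 8.23 in mimic145 (8.18 ± 0.08). It was 8.20, 8.46 and 8.30 in sirnaAGO2 (8.32 ± 0.13) and 7.91, 7.97 and 7.91 in sirnaAGO2+mimic145 (7.93 ± 0.04). Every array with the mimic lay below every array of its own comparison group, which was so in either direction for 28.4% of all genes in the first comparison and for 24.1% in the second. KLF5 fell by 0.33 in mimic145 against cntrl (SE 0.087, 95% interval -0.53 to -0.13, adjusted p = 0.0256) and by 0.39 in sirnaAGO2+mimic145 against sirnaAGO2 (95% interval -0.59 to -0.19, adjusted p = 0.0362), to levels of 79.65% and 76.36%. The difference between these effects was -0.06 (95% interval -0.34 to 0.22, adjusted p = 0.825).

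All 5 KLF5 probes were lower in both comparisons, with differences of -0.60 to -0.04 in the first and -1.01 to -0.07 in the second. The probe that fell most in the second was well above background on 9 of 12 arrays. These were all cntrl and sirnaAGO2 arrays, 2 of mimic145 and 1 of sirnaAGO2+mimic145, so it passed the filter only through the groups where it was high. Without this probe the difference in the second comparison was -0.23 (adjusted p = 0.0919) and not called. The first call was lost without cntrl replicate 1 (adjusted p = 0.0739), cntrl replicate 2 (0.105) or mimic145 replicate 2 (0.085), and the second without cntrl replicate 1 (0.055), any sirnaAGO2 replicate (0.0607, 0.168 and 0.125) or sirnaAGO2+mimic145 replicate 2 (0.108) or 3 (0.114). Both calls were lost without all arrays of replicate 1, 2 or 3 (adjusted p = 0.12, 0.167 and 0.0896 for the first, 0.0949, 0.197 and 0.213 for the second), with 75th percentile scaling (0.0538 and 0.0595) and with only the arrays compared (0.12 and 0.122). The second was also lost with normexp background correction (0.0519) and with the median over probes (0.0982). With no replicate block the adjusted p was 0.057 and 0.123, and over the limma alternatives it ran from 0.0132 to 0.167 and from 0.0247 to 0.213. Silencing alone gave -0.19 for KLF5 (adjusted p = 0.283), with the silenced array lower in 3 of 3 pairs, so that the means ran cntrl, sirnaAGO2, mimic145 and sirnaAGO2+mimic145 from high to low. Neighbouring groups in this order overlapped, apart from sirnaAGO2+mimic145, whose arrays all lay below those of mimic145. For this pair of groups the share of all genes without overlap was not computed.

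KLF6, a tumour suppressor and wound response factor, did not pass the test in any comparison. Its signal in replicates 1, 2 and 3 was 11.10, 10.79 and 11.47 in cntrl and 10.98, 10.57 and 11.28 in mimic145. It was 11.04, 10.86 and 11.38 in sirnaAGO2 and 11.01, 10.65 and 11.31 in sirnaAGO2+mimic145. Replicate 2 was the lowest and replicate 3 the highest array of every group, so the groups overlapped throughout, while the mimic array was lower within every replicate number. The difference was -0.18 in mimic145 against cntrl (95% interval -0.33 to -0.03, unadjusted p = 0.0224 and adjusted p = 0.0806 in limma), with 4 of 4 probes lower, and -0.11 in the silenced cells (adjusted p = 0.299). It was called in the first comparison with normexp background correction (-0.22, adjusted p = 0.0138), in the authors' log2 table (-0.22, adjusted p = 0.0311) and with the probes above background on all 12 arrays (-0.21, adjusted p = 0.0488).

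**Figure D3:**
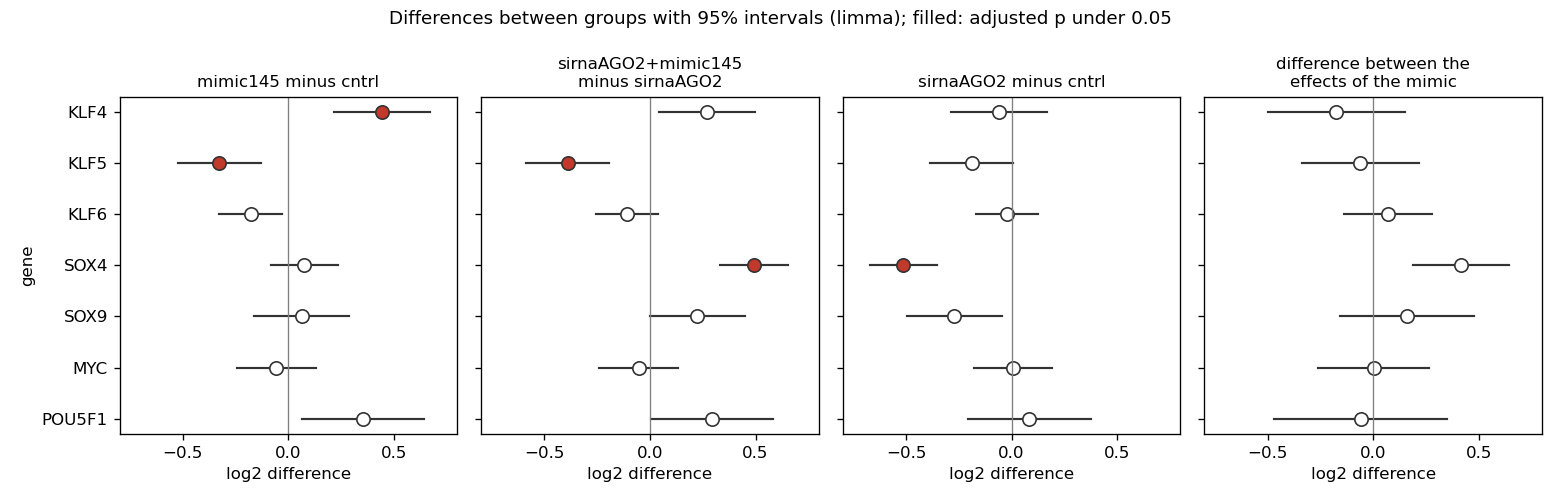
Log2 differences between groups (horizontal axes) for the 7 kept genes, with 95% intervals from limma. Filled points passed an adjusted p of 0.05: KLF4 and KLF5 in mimic145 against cntrl, KLF5 and SOX4 in sirnaAGO2+mimic145 against sirnaAGO2, SOX4 in sirnaAGO2 against cntrl, and no gene in the right-hand panel, which sets the effect of the mimic in silenced cells against that in competent cells.

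The other KLF and SP genes showed changes in both directions as well. All 23 were kept, and with the mimic 5 were called higher and 6 lower in AGO2-competent cells, 3 higher and 1 lower in silenced cells, and 0 after silencing alone. Of all genes 22.6%, 7.28% and 2.58% were called in these comparisons. The median difference of these 23 genes was 0.04 in the first and 0.11 in the second comparison. The largest rises in mimic145 were those of KLF9, a factor induced by steroid and thyroid hormones (0.58, adjusted p = 0.0138), KLF7, known from neuronal development (0.56, adjusted p = 0.0046), and KLF2, known from quiescent endothelium (0.43, adjusted p = 0.0226). The largest falls were those of SP6, an epithelial factor of tooth and skin (-0.76, adjusted p = 0.0208), KLF12, a transcriptional repressor (-0.60, adjusted p = 0.0032), and SP4 (-0.34, adjusted p = 0.0368). In silenced cells KLF7 (0.56, adjusted p = 0.0198), KLF9 (0.53, adjusted p = 0.0457) and KLF3, a repressor that recruits CtBP (0.43, adjusted p = 0.0142), rose with the mimic, and KLF10, an early response gene of TGF-beta signalling, fell (-0.41, adjusted p = 0.0448). KLF4 and KLF5 thus lay within the spread of their family, which reached from -0.76 to 0.58 in the first comparison.

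**Figure D4:**
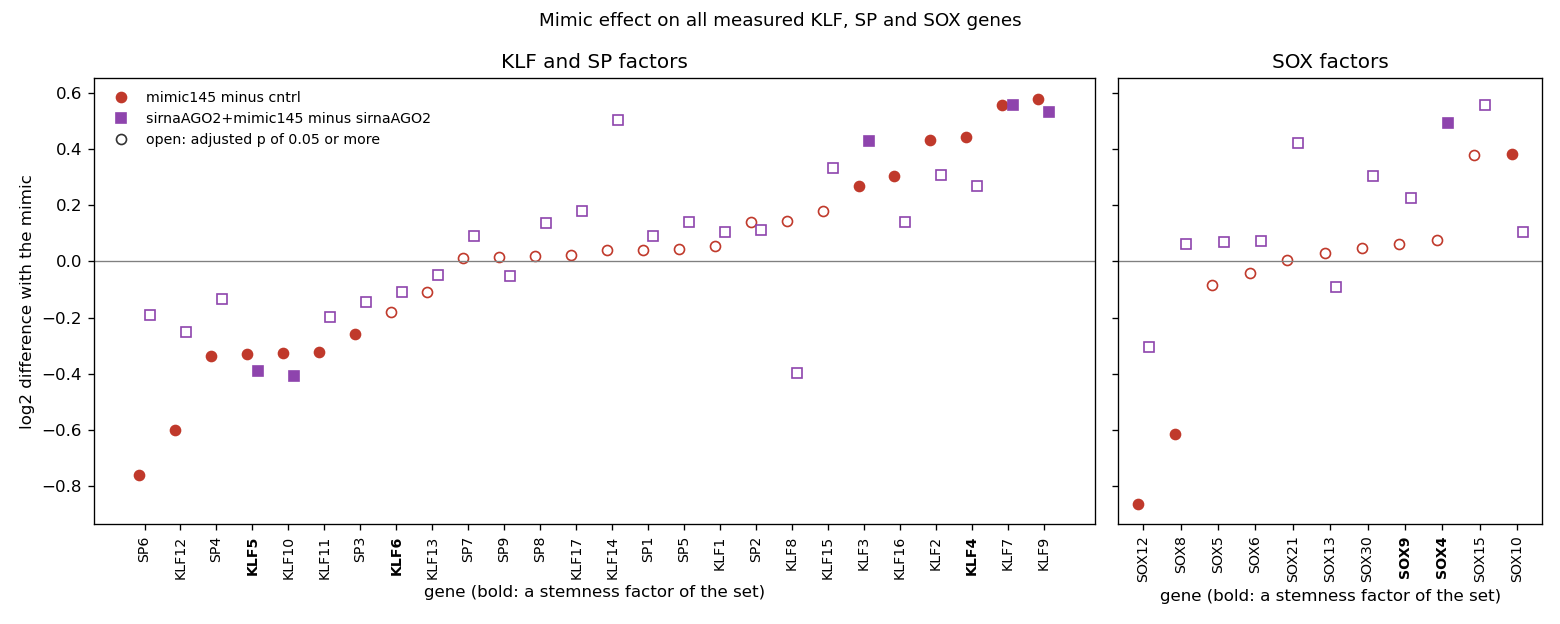
Log2 difference with the mimic (vertical axis) for all kept KLF and SP genes (left) and SOX genes (right), ordered by the difference in AGO2-competent cells (red circles), with the difference in AGO2-silenced cells as purple squares. Filled symbols passed an adjusted p of 0.05, and changes run in both directions around KLF4, KLF5, KLF6, SOX4 and SOX9 (bold).

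The SOX proteins bind DNA through an HMG box and bend it. SOX4, which supports progenitor survival and the mesenchymal programme of breast cancer cells, was measured by 1 probe. Its signal was 6.70, 6.64 and 6.37 in cntrl (6.57 ± 0.18) and 6.70, 6.74 and 6.50 in mimic145 (6.65 ± 0.13). It was 6.22, 6.05 and 5.91 in sirnaAGO2 (6.06 ± 0.16) and 6.56, 6.69 and 6.40 in sirnaAGO2+mimic145 (6.55 ± 0.14). The sirnaAGO2 arrays stood below all arrays of the other groups, and the other 3 groups overlapped one another. SOX4 fell by 0.51 in sirnaAGO2 against cntrl (SE 0.071, 95% interval -0.67 to -0.35, adjusted p = 0.0137), to 70.12%. It was higher by 0.49 in sirnaAGO2+mimic145 against sirnaAGO2 (SE 0.071, 95% interval 0.33 to 0.65, adjusted p = 0.0117), at 140.7%. Both differences rest on the same 3 sirnaAGO2 arrays. In the silencing comparison the groups did not overlap for 19.1% of all genes, and in sirnaAGO2+mimic145 against sirnaAGO2 for 24.1%.

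In AGO2-competent cells the mimic left SOX4 at a difference of 0.08 (95% interval -0.08 to 0.24, adjusted p = 0.485). The effect of the mimic was larger in silenced cells by 0.42 (95% interval 0.19 to 0.64), with the same direction in 3 of 3 replicates, an unadjusted p of 0.00242 and an adjusted p of 0.107 in limma, so this difference was not called. The SOX4 probe was well above background on 12 of 12 arrays but close to it, the lowest probe signal of that kind on an array lying between 4.93 and 6.12. Its size moved with the processing: the fall after silencing was -0.22 with normexp background correction and -0.69 with scaling to the 75th percentile, and the rise with the mimic in silenced cells was 0.35 and 0.82, all of them called. The fall was not called without cntrl replicate 1 (adjusted p = 0.0833) or any sirnaAGO2 replicate (0.0659, 0.0604 and 0.0816), with slide as a random block (0.136) or with no replicate block (0.158), and the rise not without sirnaAGO2 replicate 2 (0.065) or 3 (0.0633), sirnaAGO2+mimic145 replicate 3 (0.0586) or the replicate block (0.124). Without all arrays of replicate 1, 2 or 3 the fall was not called (adjusted p = 0.241, 0.136 and 0.21), and the rise was not called without replicate 2 or 3 (0.164 and 0.169) or with only the arrays compared (0.115). The adjusted p ran from 0.00502 to 0.241 for the fall and from 0.00585 to 0.169 for the rise over the limma alternatives.

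SOX9, a factor of mammary stem cells and of cartilage, had the same order of group means as SOX4, and none of its differences was called. Its signal was 9.47, 9.59 and 9.27 in cntrl, 9.57, 9.57 and 9.38 in mimic145, 9.36, 9.05 and 9.10 in sirnaAGO2 and 9.49, 9.59 and 9.11 in sirnaAGO2+mimic145. The arrays of every pair of groups overlapped, apart from mimic145 and sirnaAGO2, for which the share of all genes without overlap was not computed. The log2 difference was 0.06 in mimic145 against cntrl (adjusted p = 0.694), 0.22 in sirnaAGO2+mimic145 against sirnaAGO2 (95% interval 0.00 to 0.45, adjusted p = 0.174) and -0.27 in sirnaAGO2 against cntrl (unadjusted p = 0.0235, adjusted p = 0.186 in limma, lower in 3 of 3 pairs and on 3 of 3 probes). Most of the step with the mimic in silenced cells came from replicate 2, where it was 0.53, against 0.13 and 0.01 in replicates 1 and 3. Over the 12 arrays SOX4 and SOX9 had a Pearson r of 0.876, the highest of the pairs of the 7 genes, given as a description since the arrays share groups and replicate numbers.

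SOX2, the neural and pluripotency factor, and SOX11, a factor of embryonic neurons and basal-like breast tumours, each had 1 probe that was not well above background on any of 12 arrays. SOX2 read 5.33, 5.31 and 5.12 in cntrl, 4.50, 4.83 and 4.11 in mimic145, 5.09, 4.61 and 5.02 in sirnaAGO2 and 4.76, 4.55 and 4.44 in sirnaAGO2+mimic145. SOX11 read 3.64, 3.73 and 3.49 in cntrl, 3.78, 4.06 and 3.42 in mimic145, 3.68, 3.62 and 3.53 in sirnaAGO2 and 3.94, 3.96 and 3.92 in sirnaAGO2+mimic145. These readings are bounds that carry no fold change, and genes without a kept probe were left out of the test above. By the weaker flag for a positive and significant signal, SOX2 was listed on 9 of 12 arrays and SOX11 on 0 of 12.

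Of the 15 other SOX genes 9 were kept, and with the mimic 1 was called higher and 2 lower in AGO2-competent cells, with 0 called by limma in the other comparisons. Of all genes 2.58% were called after silencing alone, 7.28% with the mimic in silenced cells and 22.6% with it in AGO2-competent cells, where the genes below changed. SOX10, the neural crest and melanocyte factor, was higher (0.38, SE 0.080, adjusted p = 0.00972). SOX12, a relative of SOX4 and SOX11, was lower (-0.86, SE 0.18, adjusted p = 0.00986), and so was SOX8, a relative of SOX9 (-0.61, SE 0.16, adjusted p = 0.0248). The median of the 9 genes was 0.00 with the mimic and -0.20 after silencing, where the median of all genes was -0.03.

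MYC, the bHLH factor that drives ribosome production and growth, did not pass the test in any comparison. All 4 of its probes were well above background on all 12 arrays. Its signal was 10.89, 10.76 and 10.87 in cntrl (10.84 ± 0.07), 10.85, 10.66 and 10.84 in mimic145 (10.78 ± 0.11), 10.98, 10.84 and 10.71 in sirnaAGO2 (10.85 ± 0.14) and 10.90, 10.82 and 10.65 in sirnaAGO2+mimic145 (10.79 ± 0.13). All groups overlapped, and the 4 means lay between 10.78 and 10.85. The mimic gave -0.06 in AGO2-competent cells (SE 0.082, 95% interval -0.24 to 0.13, adjusted p = 0.667) and -0.05 in silenced cells (95% interval -0.24 to 0.13, adjusted p = 0.699), with the mimic array slightly lower in 3 of 3 pairs each time. Silencing gave 0.01 (95% interval -0.18 to 0.19, adjusted p = 0.973). In either comparison of the mimic the interval for MYC RNA reached down to -0.24 and up to 0.13.

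Of 13 partners and relatives of MYC, 0 were called by limma with the mimic in silenced cells (7.28% of all genes) or after silencing alone (2.58%). The difference between the effects was called for 0 as well. In mimic145 against cntrl 2 were called higher and 1 lower, a share near the 22.6% of all genes. MLX, the partner of the glucose-sensing MondoA protein, rose (0.44, adjusted p = 0.00394), as did MXD4, a MAX-binding antagonist of MYC (0.31, adjusted p = 0.0348), while MXI1, another antagonist, fell (-0.47, adjusted p = 0.0184). Among genes that act on MYC protein turnover, GSK3B, the kinase that marks MYC for degradation, rose (0.33, adjusted p = 0.0456). USP28, a deubiquitinase that stabilises MYC, fell in both settings of the mimic (-0.50, adjusted p = 0.00517, and -0.41, adjusted p = 0.0359), and PPP2R1A, a scaffold subunit of protein phosphatase 2A, fell in the first (-0.35, adjusted p = 0.021).

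Of 24 textbook targets of MYC, all were kept, and 7 rose and 3 fell in mimic145 against cntrl. Of all genes 11.6% were called higher and 11% lower there. The largest rises were those of the ribosome assembly genes RRS1 (0.77, adjusted p = 0.000818) and PPAN (0.49, adjusted p = 0.000936) and of SRM, which makes spermidine (0.54, adjusted p = 0.000849). CDC25A, the phosphatase that activates cyclin-dependent kinases (-0.56, adjusted p = 0.0178), NCL, the nucleolar protein nucleolin (-0.39, adjusted p = 0.00641), and LDHA, lactate dehydrogenase (-0.28, adjusted p = 0.0355), fell. In silenced cells 0 of the 24 were called with the mimic by limma, and silencing alone raised SRM (0.32, adjusted p = 0.0423). Of all genes 7.28% and 2.58% were called in these comparisons. The median of the 24 genes was 0.07 in AGO2-competent and -0.12 in silenced cells, and 0 of the 24 passed the test of the difference between the effects.

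POU5F1, the core factor of pluripotency, had 4 of 6 probes kept, and its readings were higher in the mimic groups without passing the test. Near-identical copies of this gene exist in the genome, so the source of the signal is uncertain. The signal was 7.08, 7.04 and 6.89 in cntrl (SD 0.10) and 7.12, 7.55 and 7.40 in mimic145 (7.35 ± 0.22). It was 7.20, 7.15 and 6.91 in sirnaAGO2 (7.09 ± 0.16) and 7.14, 7.66 and 7.35 in sirnaAGO2+mimic145 (7.38 ± 0.26). The arrays of cntrl and mimic145 did not overlap, which was so in either direction for 28.4% of all genes. In the silenced cells replicate 1 with the mimic lay among the arrays without it. The difference was 0.35 in mimic145 against cntrl (SE 0.13, 95% interval 0.06 to 0.64, unadjusted p = 0.0224, adjusted p = 0.0804 in limma) and 0.29 in silenced cells (adjusted p = 0.170). Replicate 1 gave 0.04 and -0.07, and replicates 2 and 3 gave 0.44 to 0.51.

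All 4 kept POU5F1 probes were higher in mimic145 than in cntrl, by 0.25 to 0.49. The first difference was called without replicate 1 (0.51, adjusted p = 0.0354), with normexp background correction (0.26, adjusted p = 0.0333) and with the 3 probes above background on all 12 arrays (0.39, adjusted p = 0.0237), and the second with those 3 probes (0.38, adjusted p = 0.0491). Silencing gave 0.08 (adjusted p = 0.758), and the effects of the mimic differed by -0.06 (adjusted p = 0.891).

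**Figure D5:**
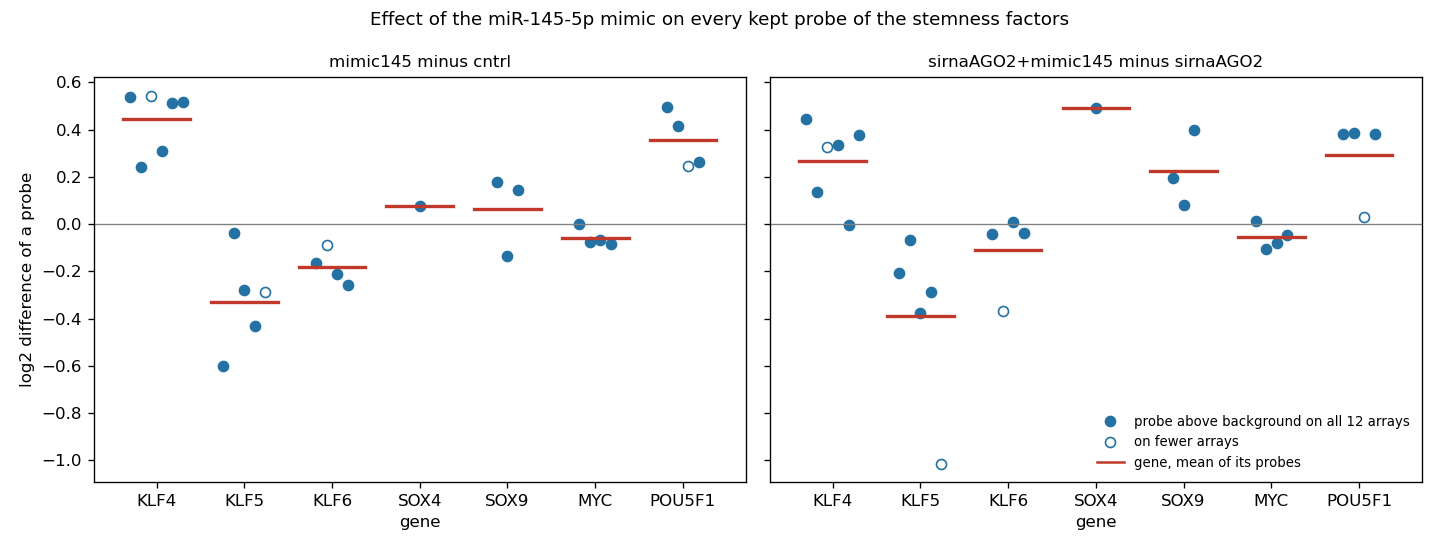
Log2 difference with the mimic (vertical axis) for each kept probe of the 7 genes, in AGO2-competent cells (left) and AGO2-silenced cells (right), with the gene's mean as a red bar. The 6 KLF4 probes and 4 POU5F1 probes all lie above 0 and the 5 KLF5 probes below 0 on the left, and on the right a KLF5 probe measured on fewer arrays lies at -1.01.

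Other genes of pluripotent cells were mostly dim or did not pass the test. Of 14 other POU genes 9 were kept and 0 were called by limma in any comparison. Of all genes 22.6% were called with the mimic in AGO2-competent cells, 7.28% in silenced cells and 2.58% after silencing alone, so 0 of 9 says little. Of 20 further pluripotency genes 19 were on the array and 15 were kept. In mimic145 against cntrl, where 11.6% of all genes were called higher and 11% lower, 0 of the 15 rose and 3 fell. They were ZFP42, the stem cell marker also called REX1 (-0.79, SE 0.21, adjusted p = 0.0281), TBX3, a T-box factor also active in mammary epithelium (-0.40, SE 0.11, adjusted p = 0.0284), and TFCP2L1, a factor of naive pluripotency (-0.33, SE 0.096, adjusted p = 0.0358). In the other comparisons 0 of the 15 were called by limma. The shares of all genes were 7.28% with the mimic in silenced cells and 2.58% after silencing alone. The median of the 15 genes was -0.03 with the mimic and -0.10 after silencing.

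LIN28B had 4 probes, of which 0 were well above background on any array, and 30 of 48 readings carried the weaker flag. The mean of its probes read 4.18, 4.33 and 4.12 in cntrl and 4.11, 4.43 and 4.16 in mimic145. It read 4.29, 4.24 and 4.32 in sirnaAGO2 and 4.53, 4.82 and 4.05 in sirnaAGO2+mimic145. All of these are bounds, left out of the test above. Of 13 genes of the LIN28 and let-7 axis 12 were kept. In mimic145 against cntrl, where 22.6% of all genes were called, 1 of the 12 was higher and 2 were lower. HMGA1, a chromatin protein of proliferating cells, was higher (0.38, adjusted p = 0.0393). THBS1, which encodes the matrix protein thrombospondin, was lower (-1.08, adjusted p = 0.000767), and so was the mRNA-binding protein gene IGF2BP2 (-0.32, adjusted p = 0.00866). With the mimic in silenced cells 0 of 12 were called by limma, and after silencing alone DICER1, the enzyme that cuts microRNA precursors, was higher (0.41, adjusted p = 0.0243). Of all genes 7.28% and 2.58% were called in these comparisons.

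Surface and enzyme markers used for breast stem and progenitor cells also changed in both directions. Of 14 such genes 12 were kept, and in mimic145 against cntrl 3 were higher and 1 lower, where 22.6% of all genes were called. ITGA6, the integrin chain CD49f, rose by 0.85 (adjusted p = 0.000396), the Polycomb gene BMI1 by 0.39 (adjusted p = 0.0426) and the drug efflux pump gene ABCG2 by 0.33 (adjusted p = 0.0373), while EPCAM, an epithelial adhesion molecule, fell by 0.83 (adjusted p = 0.000902). In silenced cells, where 7.28% of all genes were called, THY1 was higher with the mimic (0.56, adjusted p = 0.0487) and ITGB1 lower (-0.35, adjusted p = 0.0447). Silencing alone raised ITGA6 (0.67, adjusted p = 0.0104), where 2.58% of all genes were called.

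The genes whose signal followed each factor most closely over the 12 arrays were picked among 13328 other genes with at least 3 kept probes (13329 for SOX4), by Pearson r, as a description. For KLF4 they were TSC22D1 (0.944), SPRED2 (0.93) and SPSB1 (0.927). For KLF5 they were ZBTB25 (0.942), MRPS18B (0.921) and CIAO2A (0.919), and for KLF6 they were ATP6V1D (0.966), ODF2L (0.965) and SRP54 (0.958). SOX4 was followed by C9orf43 (0.894), AKNAD1 (0.886) and PLAAT4 (0.885), and SOX9 by AKNAD1 (0.935), MAP3K14 (0.915) and AHDC1 (0.905), so AKNAD1 stood on both lists. MYC had the lowest values, with INO80D (0.862), SLC18A1 (0.841) and RORA (0.836). POU5F1 was followed by TTC28 (0.961), GREB1 (0.934) and PRB3 (0.933). Such values hold the differences between groups and between replicate numbers together and carry no test.

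The mimic and its control always lay on the same slide, the mimic at the second position, so that position and mimic cannot be told apart, and neither can slide and silencing. The p-values above use 3 arrays a group, and their number limits the precision.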

How the data were processed

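RNA of 4 groups of MDA-MB-231 cells (cntrl, mimic145, sirnaAGO2, sirnaAGO2+mimic145, n = 3) was labelled with Cy3 and hybridized to Agilent human exon arrays of 420288 spots, designed on hg19. The deposited intensity values are Feature Extraction 10.7.3.1 processed signals, background-subtracted and detrended within each array by the authors' scanner software. The authors' deposited log2 table (values under 1 set to 1, quantile normalization, log2) served as an alternative.

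Here outlier spots were dropped, values under 1 set to 1 (none was), arrays quantile-normalized and log2-transformed, and spots of a probe averaged. Of 233164 probes 89.9% were named through the RefSeq accession of their transcript. Kept were the 142929 probes for which some group had all of its 3 arrays well above background, so a kept probe can be dim in the other groups. For the genes of the lists, the readings of single probes were not examined. A gene is the mean of its kept probes. limma 3.58.1 (R 4.3.3) was fitted to all 12 arrays with group and replicate number, as the study's paired test implies, with Benjamini-Hochberg adjustment, two-sided. Same-numbered arrays deviated together: over 18 pairs r was 0.148 to 0.576, against -0.497 to 0.201 for different numbers. Named genes are the 10 genes, AGO2, and per list and comparison the 3 largest called rises and falls, and the 3 closest genes by r. The genes and lists were chosen with earlier results of these data known. A result of the list of MYC turnover genes is not reported here, nor are that list's counts. The fits were tested on simulated data. Figures were drawn with matplotlib 3.10.9.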

Additional observations from a re-analysis of the deposited data

How the results depend on the processing

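The changes of single genes of the set were near the threshold. Over the alternatives, 652 of the values of the 7 genes kept their direction and side of the threshold, mostly in differences that were not called. A call was lost in 52, 10 gained one and 35 changed sign, all of the last in differences that were not called. The lost calls fell on the called differences, which had 27 alternatives each. With the mimic in AGO2-competent cells KLF4 lost 7 and KLF5 lost 11. In silenced cells KLF5 lost 16 and SOX4 lost 8, and after silencing alone SOX4 lost 10. The number of the 7 genes changed in mimic145 against cntrl was 2. It was 1 with 75th percentile scaling, and 4 with normexp background correction or with probes above background on all 12 arrays. With no filter on dim probes it was 3 of 10 genes: KLF4, KLF5 and 1 of SOX2, SOX11 and LIN28B, whose readings carry no fold change. It was 0 with only the arrays compared, at an adjusted p under 0.01 or with a difference over 0.5, and 0 to 2 when leaving out arrays. With the methods' paired t-test it was 0 adjusted and 1 unadjusted, which was KLF6 and neither KLF4 nor KLF5. In sirnaAGO2+mimic145 against sirnaAGO2 it was also 2, and it was 1 with 75th percentile scaling, normexp or the median over probes, 0 with only the arrays compared, with the adjusted methods' t-test, at 0.01 and over 0.5, and 0 to 2 when leaving out arrays. In sirnaAGO2 against cntrl it was 1, and it was 0 with slide as a random block, with the adjusted methods' t-test and at 0.01, and 0 to 1 when leaving out arrays. For the difference between the effects it was 0, and 1 (SOX4) with the unadjusted methods' t-test. Without sirnaAGO2 replicate 2, sirnaAGO2 replicate 3 or sirnaAGO2+mimic145 replicate 3 the second count was 0. The cause was not tested.

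With no replicate block, the counts of the 7 genes were 0 in all 4 comparisons. Of the 124 genes of the other lists 13, 0 and 1 were then called in the 3 comparisons of groups. Of all genes 10.9%, 0.427% and 0.263% were called in that fit, against 22.6%, 7.28% and 2.58% with the block. No call of the set held without the replicate block. With 75th percentile scaling 12 of the 124 list genes were called in silenced cells. Of all genes 13.1% were called there, against 7.28% with quantile normalization. The median of all genes moved to 0.107, and 80.2% of 2394 calls were higher, against 775 of 1328.

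Values that changed sign were small. MYC after silencing was -0.002648 with 75th percentile scaling, -0.01127 with normexp and -0.01238 in the authors' table. In the difference between the effects, KLF5 was 0.02109 with normexp, 0.1054 with probes above background on all 12 arrays and 0.09934 with the median over probes, SOX9 was -0.1509 and MYC -0.01852 with that median, MYC was -0.009672 in the authors' table, and POU5F1 was 0.007984 with 75th percentile scaling and 0.02633 with the median. When leaving out arrays, MYC with the mimic in silenced cells ran from -0.1121 to 0.006973. After silencing KLF6 ran from -0.08 to 0.01156, MYC from -0.03806 to 0.08836 and POU5F1 from -0.04084 to 0.1852. The difference between the effects ran from -0.1619 to 0.01564 for KLF5, -0.03462 to 0.2929 for SOX9, -0.05519 to 0.07138 for MYC and -0.1713 to 0.06586 for POU5F1. By the weaker detection flag 9 of the 10 genes had a kept probe, all but SOX11.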
